A study of Homo sapiens with 6 samples.

Results

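The genes described here are CST6, 2 further cystatins (CST3 and CSTB), legumain (LGMN) and 6 lysosomal cysteine cathepsins (CTSB, CTSL, CTSV, CTSH, CTSZ and CTSS). These 10 genes are among 60649 gene rows of a raw count table. CST6 was chosen by its measured difference between METTL3-overexpressing and control cells, and the other 9 genes were chosen for their place in the same inhibitor and protease network with earlier results of these data known. Each gene was matched by its Ensembl identifier, and all 10 passed the filter on low counts, which left 22038 genes for testing. Because the choice used the METTL3 contrast, the values of the 10 genes in that contrast are a description without a test.

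Poly(A)+ RNA was sequenced from OVCAR5, an established human epithelial ovarian cancer line, in 3 METTL3-overexpressing and 3 control libraries. METTL3 is the catalytic subunit of the enzyme that writes N6-methyladenosine (m6A) on mRNA, and the comparison asks which transcripts differ when it is overexpressed. The METTL3 cells were a stable lentiviral line with a METTL3 construct, and the controls carried the empty-vector lentivirus. Both groups shared the OVCAR5 background, lentiviral infection and puromycin selection, and no drug other than puromycin was named for them. The design notes call the controls parental, whereas the treatment notes and the paper describe an empty vector. Nothing states that the 3 libraries of a group came from separate transductions or separate cultures, so the errors below measure the spread between libraries, which may be technical.

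Cystatins are small proteins that block papain-like cysteine proteases by lying across the active-site cleft. Cystatin E/M, encoded by CST6, is secreted, is best known from the outer layers of the epidermis, and inhibits legumain as well as cathepsins L and V. Legumain is an asparaginyl endopeptidase of the lysosome that trims other proteases, and the cathepsins degrade proteins in lysosomes and, when secreted, in the matrix outside the cell.

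Total counts were between 101214854 and 125463386 in the METTL3 libraries and between 96633925 and 113343102 in the vector libraries. METTL3 itself ran from 152.4 to 175.3 CPM (counts per 1000000 counts of the library, with totals scaled by TMM) in the METTL3 libraries and from 68.6 to 80.6 CPM in the vector libraries, so the labels and the level of the targeted gene went the same way in every library. Replicate 1 stood apart in both groups. With the group in the model, 1997 of 22038 genes differed between the replicate 1 libraries and the other 4 (edgeR quasi-likelihood F-test with Benjamini-Hochberg adjustment, adjusted p under 0.05). Results are therefore given with all 6 libraries and with replicates 2 and 3 alone. The summed level of 6 epithelial markers was between 7002 and 8054 CPM with METTL3 and between 5664 and 8861 CPM with the vector. Markers of other cell types were low. The 5 leukocyte and macrophage markers summed to between 7.63 and 11.9 CPM with METTL3 and between 7.46 and 11.0 CPM with the vector, nearly all of it CD14, whereas PTPRC, AIF1 and CD3E held at most 8 counts in a library. The 5 fibroblast markers summed to at most 20.4 CPM and the 4 endothelial markers to at most 0.78 CPM. In bulk RNA, fewer cells of a type and less RNA per cell cannot be told apart.

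GGACT is a common sequence context of m6A, and its places in the canonical transcripts are shown because the enzyme that was overexpressed acts on such runs. No m6A was measured in these libraries. The motifs were read on the transcript strand from hg38 (GRCh38) with GENCODE transcript models, and the opposite strand was not searched since the mark is on the RNA. GGACT was present in 9 of the 10 canonical transcripts, at 30 sites, of which 17 were in coding sequence and 13 in untranslated regions. CST6 was the exception. Its transcript of 592 bases held no GGACT, and the related GGACC, searched in CST6 alone, was found once in its coding sequence. The paper names the wider consensus RRACH, where R is A or G and H is A, C or T. Its other forms were not searched, except GGACA in CST6, which was not found. The lack of GGACT in CST6 is therefore not a lack of every context for the mark. Across 14873 protein-coding genes tested, 91.4% held at least 1 GGACT, but the share was 47.3% among the 239 genes whose canonical transcripts are 500 to 700 bases long. Per kilobase, CTSZ held the most sites at 3.33, followed by CTSH at 2.80 and CST3 at 2.52, against a median of 0.94 over the protein-coding genes, and 7 of the 10 genes lay above that median. The windows below are coding sequence, written 5′ to 3′ with the motif in capitals. The CST6 window shows its single GGACC, those of CST3 and CSTB the sites in the other cystatins, those of CTSL and CTSV a site at the same place in near-identical sequence, and that of CTSH 1 of its 5 coding sites.
CST6, chr11:66012151-66012175, plus strand: gagaactccgGGACCtgtcgcccga
CST3, chr20:23637690-23637714, minus strand: ggcgtgcactGGACTttgccgtcgg
CSTB, chr21:43774299-43774323, minus strand: tcggcgacgaGGACTtcgtacacct
CTSL, chr9:87728766-87728790, plus strand: atggaggcctGGACTctgaggaatc
CTSV, chr9:97036542-97036566, minus strand: acggaggcctGGACTctgaggaatc
CTSH, chr15:78931475-78931499, minus strand: agcagctggtGGACTgcgcccagga
The CTSL and CTSV windows were identical at 24 of 25 bases. They were shown for this match, so they do not measure how close the genes are over their length.

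CST6 (ENSG00000175315) lies at chr11:66012008-66013505 on the plus strand and has 3 exons. Its level was 47.6, 60.4 and 65.3 CPM in METTL3 replicates 1, 2 and 3, from 5369, 7485 and 6590 counts. In the vector replicates, in the same order, it was 88.0, 24.2 and 24.8 CPM, from 8347, 2739 and 2735 counts. CST6 was therefore low in only 2 of the 6 libraries, vector replicates 2 and 3, and the highest level of all was in vector replicate 1, so the groups overlapped. The mean was 57.8 ± 9.15 CPM in METTL3 cells against 45.7 ± 36.7 CPM in vector cells (SD, n = 3), and the fitted log2 fold change was 0.34 with a standard error (SE) of 0.46. With replicates 2 and 3 alone it was 1.36 (SE 0.062), a 2.56-fold higher level with METTL3, and with the replicate number as a block over all 6 libraries it was 0.64. Within the same-numbered libraries, CST6 was 0.54-fold the vector level in replicate 1 but 2.49-fold and 2.64-fold in replicates 2 and 3. CST6 varied far more than the other 9 genes. Its highest library was at 3.63 times its lowest, a ratio larger than that of 99.2% of the 11428 tested genes with a mean of at least 5 CPM. The other members ran from 1.27 for CTSL to 1.71 for CTSS, around a median of 1.45 over those genes. CST6 was chosen for a difference between these same libraries, so its high rank was favoured by the choice and is a description only. Of the 6 epithelial markers, 4 (EPCAM, KRT8, KRT18 and KRT19) were lower with METTL3 in replicate 1 and higher in replicates 2 and 3, as CST6 was. EPCAM, an epithelial adhesion protein, was at 437.5, 414.3 and 431.7 CPM with METTL3 and at 483.2, 246.8 and 270.7 CPM with the vector. The other 2 markers were higher with METTL3 in every pair. CDH1, the epithelial cadherin, was at 439.1, 357.8 and 345.8 CPM against 201.1, 184.0 and 189.4 CPM, and MUC1, a membrane mucin, at 148.0, 104.5 and 90.5 CPM against 27.0, 78.7 and 71.9 CPM, lowest in the library where CST6 was highest. In replicates 2 and 3 alone all 6 markers were called higher in edgeR, where 15.2% of all genes were called in either direction. Their part in the CST6 values was not tested.

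**Figure D1:**
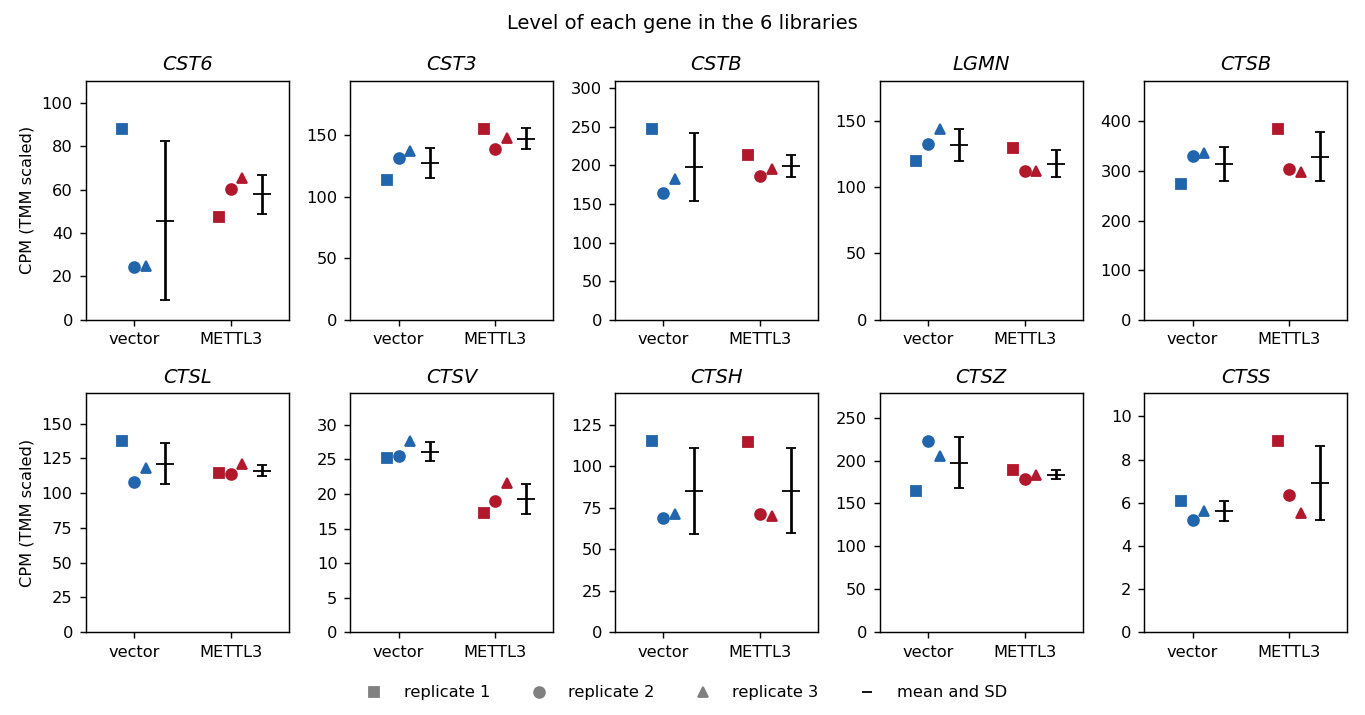
Level of each of the 10 genes in CPM (linear axis from 0, TMM scaled) in the 3 vector (blue) and 3 METTL3 (red) libraries, with squares, circles and triangles for replicates 1, 2 and 3 and bars for the mean and SD. CST6 was at 88.0 CPM in vector replicate 1 against 24.2 and 24.8 CPM in vector replicates 2 and 3, and CTSH was near 115 CPM in replicate 1 of both groups against 69.0 to 71.1 CPM elsewhere.

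Of the 2 other cystatins, CSTB placed the vector libraries as CST6 did, at a much smaller size, and CST3 did not. The METTL3 libraries of CSTB had another order than those of CST6, with replicate 1 the highest of them and not the lowest. CST3 (chr20:23626706-23638473, minus strand) encodes cystatin C, the abundant secreted inhibitor of body fluids. It was at 155.3, 138.5 and 148.1 CPM with METTL3 and at 114.0, 131.3 and 137.2 CPM with the vector. All METTL3 libraries lay above all vector libraries, at a log2 fold change of 0.21 (SE 0.12), but in replicates 2 and 3 alone the difference was 0.09 (SE 0.055). CSTB (chr21:43772511-43776330, minus strand) encodes cystatin B, an inhibitor inside the cell. It was at 213.8, 185.8 and 195.4 CPM with METTL3 and at 247.1, 164.5 and 181.9 CPM with the vector. As for CST6, vector replicate 1 was the highest library and vector replicates 2 and 3 the lowest, with log2 differences of -0.21, 0.18 and 0.10 in the same-numbered pairs. The groups overlapped, and the means of 198.3 ± 14.2 and 197.9 ± 43.6 CPM (SD, n = 3) differed by less than the spread.

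LGMN (chr14:92703807-92748679, minus strand) was at 129.0, 111.8 and 112.2 CPM with METTL3 and at 119.6, 132.3 and 143.8 CPM with the vector. In replicates 2 and 3 both METTL3 libraries lay below both vector libraries, by 1.23-fold, and replicate 1 went the other way. Over all 6 libraries the log2 fold change was -0.16 (SE 0.12). CST6 and LGMN thus differed in opposite directions in replicates 2 and 3, and in replicate 1 each had the reverse sign. A replicate 1 pair opposite to both others was seen in 29.8% of all tested genes. The other named targets of cystatin E/M did not share the signs of LGMN. CTSL had those of CST6, at 0.84-fold, 1.05-fold and 1.02-fold the vector level in replicates 1, 2 and 3, and CTSV was lower in every pair. The ratio of CST6 to LGMN, in CPM, was 0.369, 0.540 and 0.582 with METTL3 and 0.736, 0.183 and 0.172 with the vector. The spread of this ratio followed CST6, since LGMN itself moved by 1.29-fold at most between libraries.

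CTSL and CTSV encode the endopeptidases cathepsins L and V, which are close paralogs and known targets of cystatin E/M. CTSL (chr9:87724051-87731469, plus strand) was at 114.8, 113.4 and 120.6 CPM with METTL3 and at 137.4, 108.1 and 118.4 CPM with the vector. These groups overlapped, and CTSL had the smallest ratio of highest to lowest library among the 10 genes, 1.27 against 1.29 for LGMN. CTSV (chr9:97029677-97156556, minus strand) was at 17.2, 19.0 and 21.6 CPM with METTL3 and at 25.2, 25.6 and 27.7 CPM with the vector. Each METTL3 library lay below each vector library, and the log2 fold change of -0.44 (SE 0.13) was 1.36-fold lower over all 6 libraries and 1.31-fold lower in replicates 2 and 3. CTSV was the only one of the 10 with a lower METTL3 level in every same-numbered pair, and CST3 the only one with a higher one. Of all tested genes, 39.6% kept the same sign in every same-numbered pair, against these 2 of the 10. Nothing is read from this count. The CST6 to CTSV ratio in CPM was 2.76, 3.17 and 3.03 with METTL3, against 3.50, 0.948 and 0.895 with the vector. CTSL and CTSV shared no 50-base stretch of their canonical transcripts with each other. Of the 50-base stretches of the canonical transcripts, 0.997% of those of CTSL also occurred in CTSL pseudogenes, and 0.394% of those of CTSV occurred in other genes, none of them CTSL.

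CTSB and CTSZ encode cathepsins B and Z, which cut mainly from the carboxyl end of proteins. CTSB was at 385.0, 303.8 and 297.7 CPM with METTL3 and at 274.3, 329.8 and 336.4 CPM with the vector. The groups overlapped, and the pair of replicate 1 libraries, 1.40-fold higher with METTL3, ran opposite to replicates 2 and 3, at 0.92-fold and 0.88-fold. CTSZ (chr20:58985686-59008238, minus strand) was at 188.6, 178.5 and 183.1 CPM with METTL3 and at 165.0, 222.7 and 205.3 CPM with the vector. It showed the same turn: 1.19-fold lower with METTL3 in replicates 2 and 3, and 1.14-fold higher in replicate 1. CTSZ is uncertain in 1 respect, since 31.7% of its exon bases lie opposite exons of NELFCD and the strand setting of the counting is not given in the sources used here.

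CTSH and CTSS encode cathepsin H, mainly an aminopeptidase, and cathepsin S, a protease best known from antigen-presenting cells. CTSH (chr15:78921058-78949574, minus strand) was at 114.8, 71.1 and 69.8 CPM with METTL3 and at 115.2, 69.0 and 71.1 CPM with the vector. The level followed the replicate number and not the group, with means of 85.2 ± 25.6 and 85.1 ± 26.1 CPM (SD, n = 3). CTSS (chr1:150730079-150765957, minus strand) was at 8.86, 6.36 and 5.53 CPM with METTL3 and at 6.07, 5.19 and 5.60 CPM with the vector. Its counts were between 558 and 999 a library, and its groups overlapped. The 6 cathepsins together made up 829.3, 692.1 and 698.3 CPM with METTL3 and 723.1, 760.2 and 764.5 CPM with the vector. This pooled level turned between replicate 1 and the others as CTSB and CTSZ did, the cathepsins of the 6 with the highest CPM. The turn was not shared by the rest. CTSL turned the other way, and the replicate 1 pair of CTSV, CTSH and CTSS was not opposite to both other pairs.

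Among all genes tested, 0% (0 of 22038) had an adjusted p under 0.05 between METTL3 and the vector with all 6 libraries in edgeR, and 0 of the 10 genes did. At an unadjusted p under 0.05 the share was 8.3% of all genes and 1 of the 10, CTSV, and DESeq2 called 225 genes and none of the 10. With replicates 2 and 3 alone, 15.2% of all genes and 4 of the 10 (CST6, LGMN, CTSV and CTSZ) were called. METTL3 libraries lay wholly above the vector libraries in 8.47% of genes and in 1 of the 10, CST3, and wholly below in 8.93% and in 1 of the 10, CTSV. Nothing is read from these counts, because the choice of the genes used the contrast. By sign, 6 of the 10 were higher and 4 lower with METTL3, with a median log2 fold change of 0.0027 against -0.018 over all tested genes. The replicate 1 pair had the opposite sign to both other pairs in 6 of the 10 (CST6, CSTB, LGMN, CTSB, CTSL and CTSZ), against 29.8% of all tested genes. From this count too nothing is read.

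**Figure D2:**
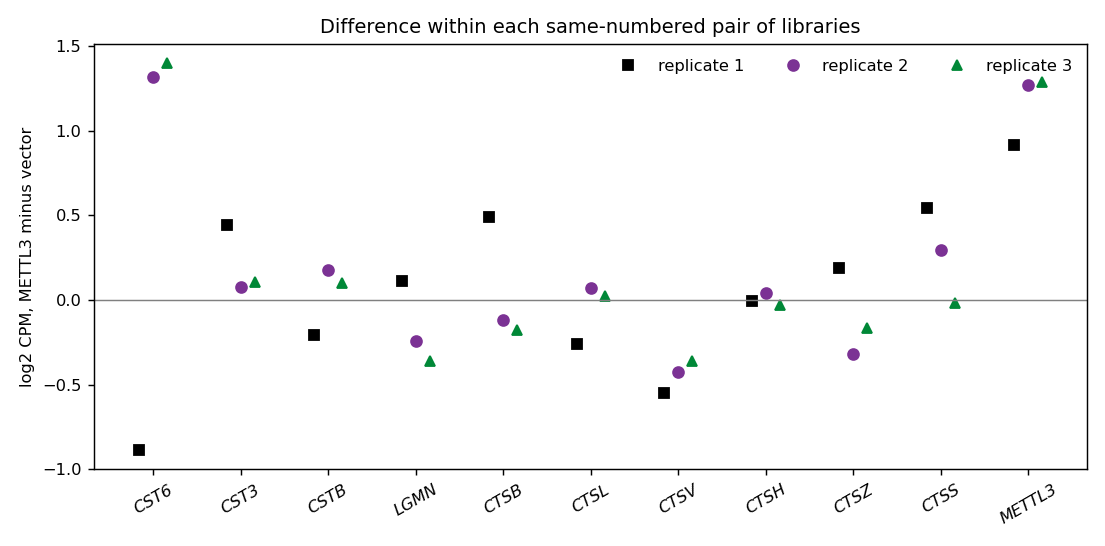
Difference in log2 CPM between the METTL3 and vector libraries of the same replicate number, for the 10 genes and METTL3, with squares, circles and triangles for replicates 1, 2 and 3 and a grey line at no difference. CST6 was at -0.89 in replicate 1 and at 1.32 and 1.40 in replicates 2 and 3, whereas METTL3 itself was higher in all 3 pairs.

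Whether a gene differed by replicate number, whatever the group, is a comparison the choice of CST6 did not rest on for the other 9 genes. In the edgeR quasi-likelihood F-test of the replicate number with 2 degrees of freedom and the group in the model, 0.0318% of genes (7 of 22038) and 0 of the 10 had an adjusted p under 0.05. The unadjusted count was 2894 genes, and the DESeq2 likelihood ratio test called 1089 genes, CTSH among them. The narrower contrast of replicate 1 against replicates 2 and 3 was added because earlier results had shown replicate 1 to stand apart. It called 9.06% of genes and 1 of the 10. CTSH was 1.64-fold higher in replicate 1 (log2 difference 0.71, SE 0.080, adjusted p = 0.00533 in edgeR), in both groups and without overlap with the other 4 libraries. Without METTL3 replicate 2 its adjusted p was 0.0508, and without vector replicate 3 it was 0.0527, at log2 differences of 0.68 and 0.69, and over all 10 alternative settings it ran from 2.9e-07 to 0.0527. In the test with 2 degrees of freedom its adjusted p was 0.112.

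CSTB (log2 difference 0.34, adjusted p = 0.099) and CTSS (0.38, adjusted p = 0.135) did not pass in the same edgeR contrast. CD14, a monocyte and macrophage co-receptor, was also higher in replicate 1, at 11.4 and 10.8 CPM against 7.02 to 8.0 CPM in the other 4 libraries (log2 difference 0.56, adjusted p = 0.025 in edgeR). PTPRC, the defining surface protein of leukocytes, was at 0.07 CPM or less in every library. PDGFRB, a receptor of fibroblasts and pericytes, was the other cell type marker called in this contrast and went down, at 0.77 and 0.83 CPM in replicate 1 against 1.69 to 2.76 CPM elsewhere (log2 difference -1.42, adjusted p = 0.0087 in edgeR). The part of cells bearing either marker in the CTSH values was not tested. The replicate 1 mean hides opposite values for CST6, since METTL3 replicate 1 was the lowest of its group and vector replicate 1 the highest. The difference of CST6 in this contrast was -0.40 without vector replicate 1 and 1.80 without METTL3 replicate 1, on the log2 scale. In both fits replicate 1 is a single library, and the spread comes from the other 4.

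Levels of different genes were compared as CPM per kilobase of exon. With the length of all merged exons, CST6 came first at a mean of 87.4 CPM per kilobase (40.9 to 148.7 over the 6 libraries), followed by CSTB at 51.9, CST3 at 38.0, LGMN at 32.2 and CTSB at 30.5. Next were CTSL at 19.4, CTSZ at 9.83, CTSH at 6.19, CTSV at 3.10 and CTSS at 0.91 CPM per kilobase. The ranges of CST6 and CSTB overlapped, as did those of CST3 and LGMN and of LGMN and CTSB, so these neighbours did not differ beyond their spread. The other neighbours did not overlap. The order rests on the length used: CST6 has the same 592 bases under each, whereas the merged exons of CTSZ cover 19384 bases and its canonical transcript 1502. With the longest transcript, CST6 again came first, followed by CTSB at 77.0 and LGMN at 59.0 CPM per kilobase, then CSTB at 52.9 and CST3 at 41.8. In this order the ranges of neighbours from CST6 to CST3 overlapped. With the canonical transcript length, chosen after these values were seen, CSTB led at 336.9 CPM per kilobase, then CST3 at 173.3 and CTSZ at 126.8, and CST6 came in place 4. The ranges of CTSZ and CST6 and of CST6 and CTSB overlapped, so place 4 is no difference beyond the spread. CTSH, CTSV and CTSS closed the order under all 3 lengths.

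**Figure D3:**
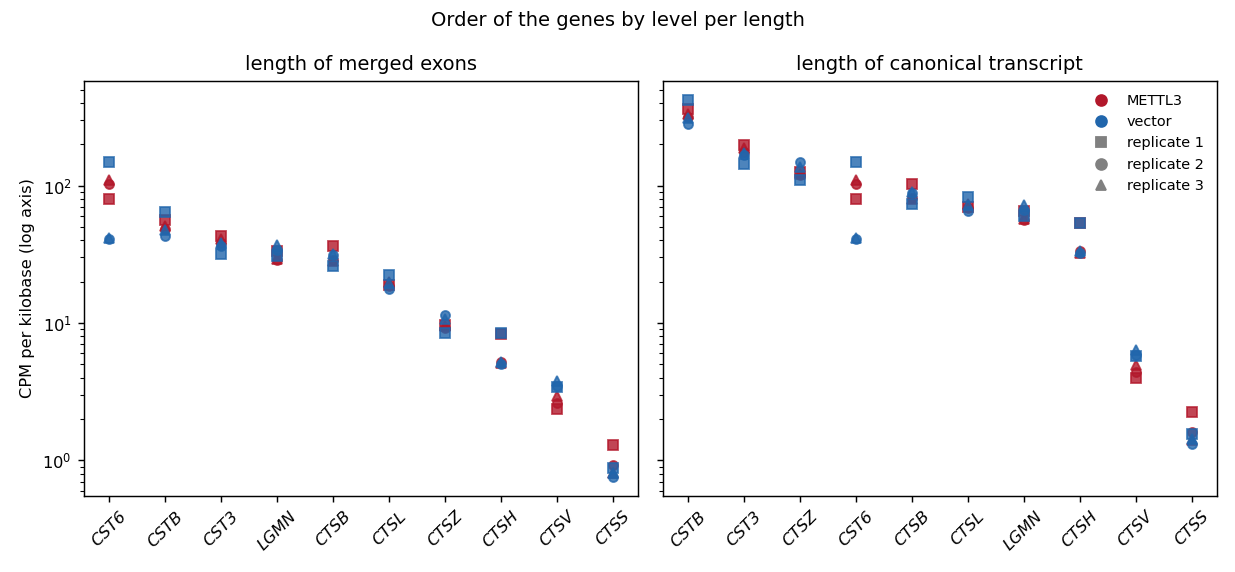
Level per length (CPM per kilobase, log axis) of the 10 genes in each library, with genes ordered by their mean, with the length of merged exons on the left and of the canonical transcript on the right. CST6 spans 40.9 to 148.7 CPM per kilobase and moves from place 1 to place 4 between the panels, whereas CTSV and CTSS are lowest in both.

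The genes with the profile most like that of CST6 were found by the root mean square distance between log2 CPM values, centred on each gene's mean, over the 6 libraries. Of the 22037 other genes tested, the nearest was SCEL, which encodes sciellin, a precursor protein of the cornified envelope, at a distance of 0.089. SCEL was at 81.0, 89.4 and 92.3 CPM with METTL3 and at 127.0, 36.4 and 39.1 CPM with the vector. FGFBP1, a secreted carrier of fibroblast growth factors, followed at 0.14, KRT17, a keratin of basal and activated epithelium, at 0.14, the pseudogene RNF2P1 at 0.15 and CCDC152 at 0.19. The median distance over all these genes was 0.73, and 18 genes lay within 0.25. KRT17 (42 to 123 counts) and RNF2P1 (11 to 33 counts) rest on low counts. In each of the 5, vector replicate 1 was between 2.93 and 3.37 times the mean of vector replicates 2 and 3, against 3.59 times for CST6. None of the other members came near. CSTB was at a distance of 0.565 (place 1973), CTSH at 0.61, and CTSZ was farthest at 0.835 (place 15818). These distances describe 6 libraries that share the replicate 1 difference, and carry no test.

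**Figure D4:**
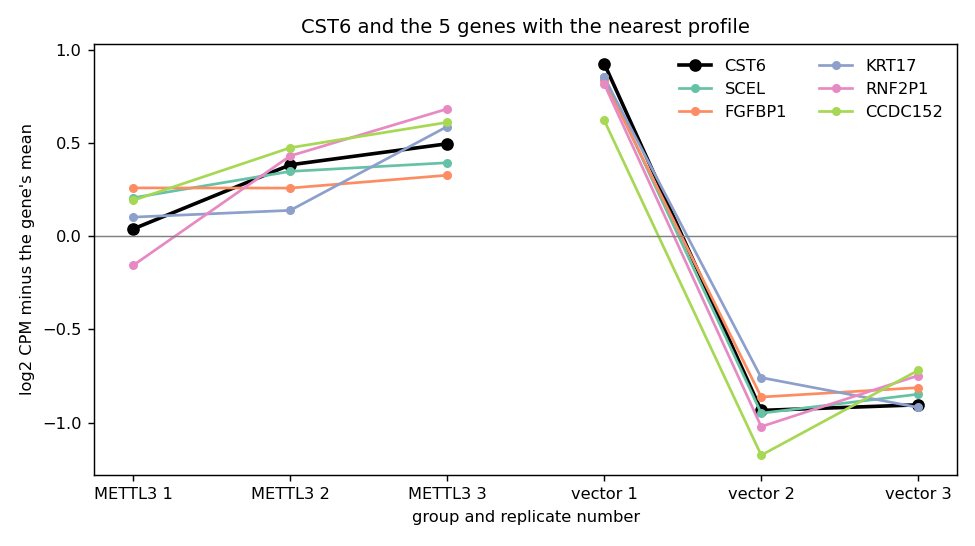
Log2 CPM minus the gene's own mean over the 6 libraries for CST6 (black) and the 5 genes nearest to it, by group and replicate number, with lines that join libraries of a group only to mark which points belong to 1 gene. All 6 genes are highest in vector replicate 1 and lowest in vector replicates 2 and 3.

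Around these 10 genes, 45 further genes of the network were taken from 5 lists, and 34 of them passed the filter. With all 6 libraries 20 were higher and 14 lower with METTL3, against 10415 higher and 11623 lower over all genes, and none had an adjusted p under 0.05 in edgeR. At an unadjusted p under 0.05 there were 2 of 34, CST5 and SORT1, where the share of all genes was 8.3%. In replicates 2 and 3 alone 1 was called higher (SORT1) and 6 lower (CTSF, CTSO, IGF2R, PSAP, LAMP1 and LAMP2), 7 of 34 in all, where 15.2% of all genes were called. Between replicate 1 and the other libraries 0 of 34 were called, against 9.06% of all genes.

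Of 15 other cystatins, 7 were tested, with a median log2 fold change of 0.15 over all 6 libraries and -0.075 in replicates 2 and 3. They were rare. CST1, a secreted salivary-type cystatin, had a mean of 3.41 ± 0.26 CPM in METTL3 cells against 3.06 ± 0.90 CPM in vector cells, and CST4 of the same type was at 1.44 ± 0.19 and 1.14 ± 0.14 CPM (SD, n = 3). CST5, which encodes cystatin D, was at 0.24 ± 0.073 and 0.11 ± 0.037 CPM, at a log2 fold change of 1.16 (SE 0.44, adjusted p = 0.565 in edgeR). CST5 rests on low counts, from 8 to 40 a library. The 15 genes together summed to at most 7.66 CPM in a library.

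All 5 other cysteine cathepsins were tested. CTSC, the dipeptidyl peptidase that activates granule serine proteases, was at 521.7 ± 27.1 and 530.1 ± 55.5 CPM (SD, n = 3). CTSK, the collagen-cutting cathepsin of osteoclasts, was at 2.44 ± 0.23 and 2.58 ± 0.31 CPM. CTSF and CTSO, lysosomal cathepsins of less known role, were called lower in replicates 2 and 3 at log2 fold changes of -0.35 (SE 0.095, adjusted p = 0.0204) and -0.26 (SE 0.079, adjusted p = 0.0384), and over all 6 libraries were at 0.063 (SE 0.25) and -0.18 (SE 0.15).

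Of the aspartic and serine cathepsins 4 of 5 were tested. CTSD, the main aspartic protease of the lysosome, had a mean of 197.1 ± 36.1 CPM in METTL3 cells against 161.6 ± 12.5 CPM in vector cells (log2 fold change 0.29, SE 0.15). CTSA, which protects lysosomal glycosidases, was at 144.3 ± 9.52 and 141.1 ± 26.3 CPM, and CTSE, an endosomal aspartic protease, at 1.73 ± 0.38 and 1.98 ± 0.34 CPM. None of the 3 passed the edgeR test over all 6 libraries or over replicates 2 and 3.

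The sorting and lysosome list held 15 genes, all tested, 12 higher and 3 lower over all 6 libraries, with a median log2 fold change of 0.10, and of -0.049 in replicates 2 and 3. SORT1, the sorting receptor sortilin, was at 129.5, 99.4 and 97.3 CPM with METTL3 and at 90.6, 77.1 and 74.4 CPM with the vector. Its groups did not overlap, with METTL3 wholly above, as in 8.47% of all genes. Its log2 fold change was 0.43 (SE 0.15, adjusted p = 0.547) over all 6 libraries and 0.37 (SE 0.053, adjusted p = 0.00022) in replicates 2 and 3 in edgeR. NAGPA, which uncovers the mannose 6-phosphate tag that guides cathepsins to lysosomes, was at 30.6 ± 2.24 and 25.7 ± 1.17 CPM without overlap (log2 fold change 0.25, SE 0.11). In the other lists CST5 and CTSD also lay wholly above with METTL3, and TGM1 wholly below, as 8.93% of all genes did. PSAP, the precursor of the saposins, and LAMP1, a lysosomal membrane protein, turned as LGMN did. PSAP was at 711.6, 619.2 and 630.5 CPM with METTL3 and at 512.6, 698.5 and 737.1 CPM with the vector. LAMP1 was at 379.3, 426.2 and 426.8 CPM and at 302.5, 498.1 and 507.2 CPM. Both were higher with METTL3 in replicate 1 and lower in replicates 2 and 3.

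The transglutaminase list holds the transglutaminases TGM1, TGM3 and TGM5 together with LORICRIN and FLG, which encode proteins of the cornified envelope. Of its 5 genes 3 were tested (TGM1, TGM5 and FLG), all at low levels, and TGM3 and LORICRIN did not pass the filter. TGM1, the membrane-bound keratinocyte transglutaminase, was at 1.22 ± 0.16 and 1.44 ± 0.073 CPM, and TGM5, another epidermal transglutaminase, at 0.093 ± 0.032 and 0.19 ± 0.091 CPM (SD, n = 3), at log2 fold changes of -0.24 (SE 0.20) and -1.02 (SE 0.51). The whole list summed to between 1.28 and 1.72 CPM with METTL3 and between 1.77 and 2.00 CPM with the vector.

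**Figure D5:**
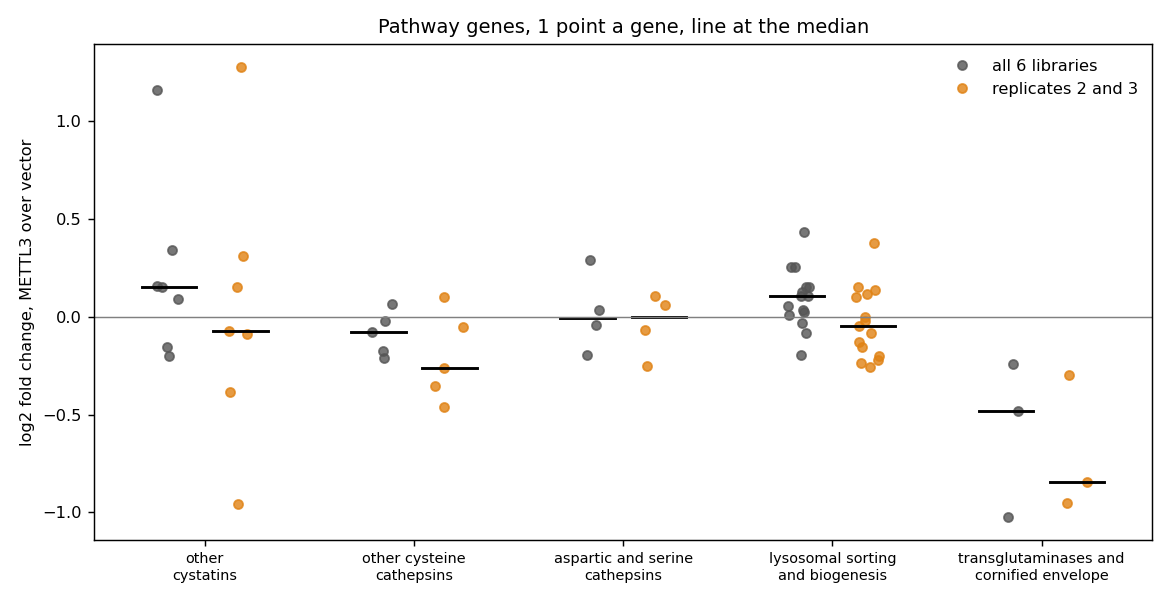
Log2 fold change of METTL3 over vector for each tested gene of the 5 network lists, 1 point a gene, over all 6 libraries (grey) and over replicates 2 and 3 (orange), with a black line at each list's median. The median of the sorting and lysosome list is 0.10 over all 6 libraries and -0.049 in replicates 2 and 3.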

How the data were processed

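RNA-seq was analysed from 3 METTL3-overexpressing and 3 vector OVCAR5 libraries. The authors aligned reads to hg38 (GRCh38) with HISAT2 and deposited raw counts per gene from Subread featureCounts. The submitters' processing notes also name fastp, and versions are not given in the sources used here. The labels describe a stranded paired-end kit, the paper's methods another kit and single-end reads. The strand and multi-mapping settings are not given in the sources used here, so overlapping genes are uncertain. Depth per library is given with the results. For genes with many counts, the precision of CPM is set by the spread between libraries rather than by counting. For genes with few counts, counting limits it too.

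After 44 rows with duplicate identifiers were dropped, 22038 genes passed filterByExpr. Counts were normalised by TMM and tested with edgeR 4.0.16 (glmQLFit, robust) in R 4.3.3, with Benjamini-Hochberg adjustment over all genes tested and a threshold of 0.05. SE was computed from the log2 fold change and its F statistic. DESeq2 1.42.0 was an alternative, with other size factors, other filters, halved counts, the replicate block and each library left out in turn. The contrast of replicate 1 and the canonical transcript length were added after the data were seen. Functions were tested on simulated data. Symbols, exons and motifs came from GENCODE 44, and log2 CPM for profiles used a prior count of 2.

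After the group mean was subtracted, libraries of equal number correlated at 0.33, 0.12 and 0.17, which passed the minimum of 0.1 for treating the numbers as a pairing. This pairing comes from the values, and 2 differently numbered pairs also reached 0.21 and 0.13. Both were between replicates 2 and 3 and above the 0.12 of the replicate 2 pair. The values therefore set replicate 1 apart but do not show which libraries of replicates 2 and 3 belong together.

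The members and lists were chosen with earlier results of these data known. Named genes were the 10 members, METTL3, the 5 profiles nearest to CST6 and, from each list, the 2 genes with the highest CPM per kilobase and the 2 with the largest fold change at a mean of at least 1 CPM. EPCAM, CDH1, MUC1, CD14, PTPRC, PDGFRB, CST5 and the list genes called in replicates 2 and 3 were named after their values were seen. Cell type markers were epithelial (EPCAM, KRT8, KRT18, KRT19, CDH1, MUC1), leukocyte (PTPRC, CD14, CSF1R, AIF1, CD3E), fibroblast (COL1A1, COL3A1, PDGFRA, PDGFRB, DCN) and endothelial (VWF, CDH5, KDR, TEK). RefSeq promoter tables were not used here.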

Additional observations from a re-analysis of the deposited data

How the results depend on the processing

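With the vector replicate 1 library left out, CST6 rose to a log2 fold change of 1.24 and was called by edgeR, and 367 genes were called; over the 6 omissions CST6 ran from 0.077 to 1.24 and the count from 0 to 367. DESeq2 called 225 genes and a fit without the filter 560, none of them 1 of the 10, and replicates 2 and 3 called 3362 genes. In replicates 2 and 3 the log2 fold changes were 1.36 for CST6, 0.092 for CST3, -0.30 for LGMN and -0.15 for CTSB, and 7 genes of the network lists were called. With the replicate block, 0 genes were called and no call changed, but CST6 moved from 0.34 to 0.64, and CTSV was at -0.44. The count of genes that differed by replicate number, 7, was 1089 by the DESeq2 likelihood ratio test, 1482 without the filter, 1997 for replicate 1 against the others, and 554 to 9130 with 1 library left out, the highest without METTL3 replicate 1 and 6730 without vector replicate 1. In those 2 fits replicate 1 is a single library that is assumed to vary like the others. For replicate 1 against the others, CST6 was at 0.87 on the log2 scale and at 0.82 without the filter, where it passed. With the canonical transcript length CST6 took place 4, with a range that overlapped those of its neighbours. The causes of these shifts were not tested. In the METTL3 comparison none of the 10 genes passed under other size factors, other filters or halved counts. CTSH passed the test of the replicate number by DESeq2 and without the filter. With 1 library left out, other members, CST6 among them, also passed that test in some fits, but there 1 replicate number rests on a single library. Depth limits the genes with few counts, namely KRT17, RNF2P1, TGM5 and several rare cystatins and markers of other cell types. METTL3 itself, at a log2 fold change of 1.16, had an adjusted p of 0.072 in edgeR over all 6 libraries.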
